A study of Mus musculus with 4 samples.

Results

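The cyclin-dependent kinase (CDK) inhibitor genes and the core of the p53 pathway were followed in thymic epithelial cells (TECs) after induced loss of Meis1, a homeobox transcription factor. The 10 genes were taken by name: the inhibitors Cdkn1a, Cdkn1b, Cdkn1c, Cdkn2a, Cdkn2b, Cdkn2c and Cdkn2d, then Trp53, its negative regulator Mdm2 and its target Ccng1. Every non-control probe carrying one of these symbols, or a RefSeq transcript that now has one, was used. That gave 16 probes on 61 spots of each array, out of 41174 probes for 20884 gene symbols.

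Each of 4 single-colour arrays held RNA from 1 pool of 6 mice. All mice carried the tamoxifen-inducible recombinase K14-CreERT2, whose K14 (keratin 14) promoter is active in basal epithelial cells. At 3 weeks of age they were injected with 1 mg of tamoxifen on 3 consecutive days, and CD45- EpCAM+ cells were sorted 4 days later. The Meis1-CKO pools came from Meis1 fl/fl mice. The control pools came from mice with 1 floxed and 1 normal Meis1 allele, so the controls, which the sample titles call WT, had also met Cre and tamoxifen and could lose a copy of the gene. Each genotype had 2 pools, from independent experiments, and 10 ng of RNA per pool was amplified to cDNA. Cells in which the K14 promoter was silent would have kept their Meis1 alleles and remained in the sort. Per the file headers, pool 1 of each genotype was on slide 1 and pool 2 of each on slide 2, scanned separately, so that pool number, slide and scan coincide.

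CDK inhibitors slow the cell cycle by binding cyclin-CDK complexes. The Cip/Kip members (Cdkn1a, Cdkn1b, Cdkn1c) bind a broad range of complexes, whereas the INK4 members (Cdkn2a to Cdkn2d) bind CDK4 and CDK6 and so keep RB able to restrain E2F factors. The p53 protein, encoded by Trp53, induces Cdkn1a, Mdm2 and Ccng1 when it is stabilised by damage or stress, and MDM2 in turn marks p53 for degradation. In mouse heart muscle cells Meis1 has been described as an activator of Cdkn1a, Cdkn2a and Cdkn2b. In the thymus of young mice, many TECs divide, and the Aire-expressing medullary TECs have largely left the cycle.

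The probes behind the genes with most to compare are shown first. Cdkn1a and Trp53 were the genes whose Meis1-CKO arrays did not overlap the control arrays, and the 3 probes of Cdkn1b did not give one array pattern. The first 30 bases of each 60-base probe are printed 5′ to 3′ in the sense of the transcript, all in lower case since no base within them is singled out, with mm9 positions as the array files give them.
Cdkn1a, chr17:29237377-29237436, plus strand: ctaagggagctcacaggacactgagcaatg
Cdkn1b upstream probe, chr6:134871103-134871161, plus strand: agtcagcgcaagtggaatttcgactttcag
Cdkn1b middle probe, chr6:134873606-134873665, plus strand: attagccaagcaaccataagactctagtca
Cdkn1b downstream probe, chr6:134875215-134875274, plus strand: ttcattgcctgtgtatgagaaaaacttgga
Trp53 upstream probe, chr11:69393959-69394017, plus strand: gcattcaggccctcatcctcctccttccca
Trp53 downstream probe, chr11:69403134-69403193, plus strand: accgccgtacagaagaagaaaatttccgca
No gene annotation of that build was used here, so the exon or untranslated region under each probe is not stated.

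Levels are log2 signals relative to the 75th percentile of the array, and differences are log2 Meis1-CKO minus control. Meis1 itself had 2 probes, and since nothing places either inside the deletion, they do not check the labels. The brighter read -0.12 in control 1, -0.91 in control 2, -0.44 in Meis1-CKO 1 and -2.08 in Meis1-CKO 2, a difference of -0.75 (SE 0.69) with overlapping groups. The dimmer was well above background in both control pools but in no Meis1-CKO pool. Its mean over these pools was at least 1.46-fold lower in Meis1-CKO, a bound set by each array's dimmest signal above background (adjusted p = 0.9999, limma). That bound leaves out the spread between pools. The 95% interval of the probe's difference, which the dim Meis1-CKO signals enter, was -2.32 to 0.23. It includes no difference, so the bound does not establish a smallest loss of Meis1 RNA. Across features, array correlations lay between 0.936 and 0.943 among the controls and Meis1-CKO 1, and between 0.856 and 0.884 for pairs with Meis1-CKO 2, which stood apart.

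Of the 10 genes, 9 were well above background on all 4 arrays and were tested, and Cdkn2a was not above background on any. None of the 9 passed limma's test across all 16812 features at an adjusted p under 0.05 (0% of all features did), and each had an adjusted p of 0.9999. None of the 9 had an unadjusted p under 0.05 either, against 2.78% of all features. Groups did not overlap for 2 of the 9, Cdkn1a (higher in Meis1-CKO) and Trp53 (lower), against 25.5% of all features. No gene differed at least 2-fold in group means, against 12.2% of features. The median difference was -0.07 over the 9 genes and -0.05 over all features. These counts are near or below the background, and the 95% intervals of all 9 genes spanned 0. The SEs and p-values rest on the spread between pools, which limma draws toward the spread of all features (3.5 prior beside 2 residual degrees of freedom). The SE of a gene can therefore differ from the spread of its own pools. For Trp53 the SE was 0.43, while the SD of its pools was 0.038 in the controls and 0.15 in Meis1-CKO. An exact permutation test of 2 arrays against 2 cannot give a p below 0.333.

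**Figure D1:**
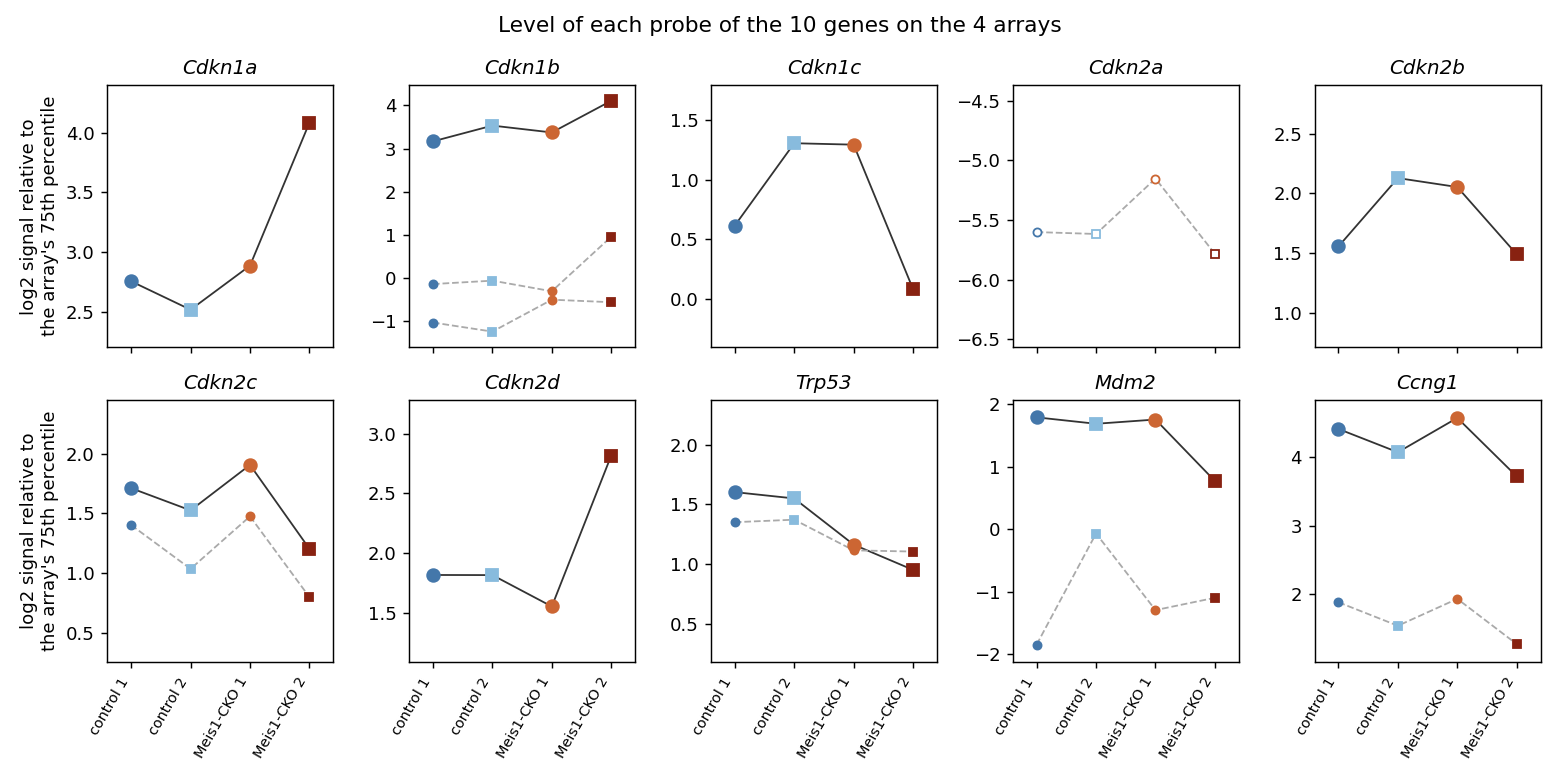
Log2 signal relative to the array's 75th percentile (y axis, a separate scale in each panel) for every probe of the 10 genes on the 4 arrays (x axis; circles pool 1, squares pool 2, blue control, red Meis1-CKO). Large symbols and solid lines mark the probe that stands for the gene, small symbols and dashed lines the others, and open symbols a probe that was not tested; the Meis1-CKO 2 array is the highest or the lowest of the 4 for each of the 9 tested genes.

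Among the Cip/Kip genes, Cdkn1a (p21), the inhibitor best known as a p53 target, had the largest difference of the 9. It read 2.75 in control 1, 2.52 in control 2, 2.89 in Meis1-CKO 1 and 4.08 in Meis1-CKO 2. Both Meis1-CKO arrays were higher than both controls, yet Meis1-CKO 1 lay within 0.13 of its slide partner while Meis1-CKO 2 lay 1.57 above its own. The mean difference was 0.85 (SE 0.56, 95% interval -0.55 to 2.25), which is 1.80-fold, with an unadjusted limma p of 0.184 and an adjusted p of 0.9999. When arrays were scaled to their medians, control 1 read 5.15 and Meis1-CKO 1 read 5.15 on that scale, the slide 1 difference was -0.0025, and the groups overlapped. Without Meis1-CKO 2 the difference was 0.25, and without Meis1-CKO 1 it was 1.45 (adjusted p = 0.235, limma).

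Cdkn1b (p27) encodes the inhibitor that the SKP2 ubiquitin ligase marks for degradation. Its brightest probe, the downstream one, read 3.17 and 3.53 in the controls and 3.37 and 4.11 in Meis1-CKO. Meis1-CKO 2 was highest, but Meis1-CKO 1 lay between the control arrays. The difference was 0.39 (SE 0.49, 95% interval -0.83 to 1.61), and 0.023 without Meis1-CKO 2. The upstream probe, on 10 spots, read -0.14 and -0.06 in the controls and -0.30 and 0.96 in Meis1-CKO, so that Meis1-CKO 1 was the lowest array and Meis1-CKO 2 the highest. The middle probe read -1.03 and -1.24 in the controls and -0.50 and -0.56 in Meis1-CKO. Here both Meis1-CKO arrays were above both controls, and the differences within slide 1 and slide 2 were close, at 0.53 and 0.68. All 3 probes were thus higher in Meis1-CKO on slide 2, by 0.57 (downstream), 1.02 (upstream) and 0.68 (middle), whereas on slide 1 the upstream probe was lower by a difference of -0.17. When the probes of a gene were averaged, the groups no longer overlapped for Cdkn1b.

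Cdkn1c (p57) is an imprinted gene expressed from the maternal copy. It read 0.62 in control 1, 1.31 in control 2, 1.29 in Meis1-CKO 1 and 0.08 in Meis1-CKO 2. The Meis1-CKO arrays lay at opposite ends, Meis1-CKO 1 beside control 2 and Meis1-CKO 2 below both controls. The difference of -0.27 (SE 0.59, 95% interval -1.76 to 1.21) combined 0.68 on slide 1 with -1.22 on slide 2.

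The INK4 genes held the only gene with no measurable level. The probe of Cdkn2a, which encodes p16INK4a and, from another reading frame, ARF, a protein that blocks MDM2, is on chr4:88920545-88920604 (minus strand) and was printed on 10 spots. None of its spots was well above background on any array. Its median linear signal was 1.94 in control 1, 2.74 in control 2, 3.38 in Meis1-CKO 1 and 2.56 in Meis1-CKO 2. Surrogate values, which the scanner software puts in place of very low signals, made up 9 of 10 spots in control 1, 10 of 10 in control 2, 2 of 9 in Meis1-CKO 1 and 9 of 10 in Meis1-CKO 2. These values set no order between the groups.

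Cdkn2b (p15), the neighbour of Cdkn2a known as a target of TGF-beta signalling, was well above background on all 4 arrays. It read 1.55 in control 1, 2.13 in control 2, 2.05 in Meis1-CKO 1 and 1.49 in Meis1-CKO 2. The groups overlapped, with control 2 highest and Meis1-CKO 2 lowest. The difference was -0.07 (SE 0.49, 95% interval -1.29 to 1.14), with 0.50 on slide 1 and -0.64 on slide 2.

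Cdkn2c (p18) had a pair of probes that share a run of 40 bases and so are not separate measurements of the transcript. The brighter, on chr4:109333779-109333838 (minus strand), read 1.71 and 1.53 in the controls and 1.91 and 1.20 in Meis1-CKO. The other read 1.40 and 1.04 in the controls and 1.48 and 0.80 in Meis1-CKO. In both, Meis1-CKO 1 was the highest array and Meis1-CKO 2 the lowest, and the differences were -0.06 (SE 0.48) and -0.08 (SE 0.49).

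Cdkn2d, the fourth INK4 gene, read 1.82 in both control 1 and control 2, and 1.55 and 2.82 in Meis1-CKO 1 and 2. The control arrays were alike, and the Meis1-CKO arrays lay on either side of them. The difference was 0.37 (SE 0.57, 95% interval -1.05 to 1.79), made of -0.26 on slide 1 and 1.00 on slide 2. When Meis1-CKO 2 was left out it was -0.26.

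In the p53 pathway, Trp53 was the gene whose pools were most alike within genotypes in relation to its difference. Its downstream probe, on 10 spots, read 1.60 in control 1, 1.55 in control 2, 1.16 in Meis1-CKO 1 and 0.95 in Meis1-CKO 2. Both Meis1-CKO arrays were below both controls, by -0.44 on slide 1 and -0.60 on slide 2. The mean difference was -0.52 (SE 0.43, 95% interval -1.59 to 0.55), with an unadjusted limma p of 0.273 and an adjusted p of 0.9999. The upstream probe read 1.35 and 1.37 in the controls and 1.11 and 1.10 in Meis1-CKO. It gave the same order with a smaller difference, -0.25 (SE 0.43), and slide values of -0.24 and -0.27. The groups did not overlap for Trp53 under any of the 9 processing alternatives that kept all 4 arrays, with differences from -0.54 to -0.39. Those that changed the filter or added the replicate block left its values as they were, so they could not alter this. Leaving out 1 array gave -0.62 to -0.41. In bulk RNA, fewer cells of a type and less RNA per cell cannot be told apart, here as for every gene.

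Mdm2, the ubiquitin ligase induced by p53 and acting against it, had probes that differed in array pattern. The upstream probe, on chr10:117129725-117129784 (minus strand) and 10 spots, read 1.79 and 1.69 in the controls and 1.76 and 0.77 in Meis1-CKO. The other arrays were alike and Meis1-CKO 2 was low. The difference was -0.48 (SE 0.52, 95% interval -1.77 to 0.82), of which -0.03 was on slide 1 and -0.92 on slide 2; after quantile normalisation of the processed signal, the slide 1 value was 0.03. Leaving out Meis1-CKO 2 left a difference of 0.016. The downstream probe read -1.85 and -0.07 in the controls and -1.29 and -1.10 in Meis1-CKO. There the control pools were the extremes, and the slide differences had opposite signs, 0.55 and -1.03.

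Ccng1, which encodes cyclin G1, a p53 target that recruits a phosphatase to MDM2, read 4.41 and 4.07 in the controls and 4.57 and 3.72 in Meis1-CKO on its upstream probe (chr11:40564413-40564472, minus strand). The downstream probe read 1.88 and 1.54 in the controls and 1.93 and 1.27 in Meis1-CKO. On both probes Meis1-CKO 1 was highest and Meis1-CKO 2 lowest, and the differences were -0.10 (SE 0.50) and -0.11 (SE 0.48). The point estimates of the 3 p53 targets did not all have the same sign: 0.85 for Cdkn1a, -0.48 for Mdm2 and -0.10 for Ccng1, none past the test. All 3 intervals spanned 0, so these signs do not settle a direction. In the same order, the differences were 0.13, -0.03 and 0.16 on slide 1 and 1.57, -0.92 and -0.35 on slide 2.

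Repeated spots show how much the values varied from spot to spot within an array. An effect shared by all spots of an array does not enter that spread. The Cdkn1a probe, the downstream Trp53 probe and the upstream probes of Mdm2 and Cdkn1b were printed 10 times, with 8 to 10 spots left after outlier flags. On the log2 scale the spot-to-spot SD lay between 0.029 and 0.119. For Cdkn1a the lowest, median and highest linear signals were 586, 628 and 669 in control 1, 745, 792 and 816 in control 2, 764, 811 and 839 in Meis1-CKO 1, and 2506, 2590 and 2658 in Meis1-CKO 2. After scaling, every Meis1-CKO 2 spot (lowest 4.04) was above every spot of the other arrays, while the lowest spot of Meis1-CKO 1 (2.81) was below the highest of control 1 (2.84). For the downstream Trp53 probe the highest spot of a Meis1-CKO array reached 1.27 and the lowest spot of a control array 1.48, so no spots overlapped between genotypes. Spots of 1 array share a pool and are not replicates of a genotype.

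**Figure D2:**
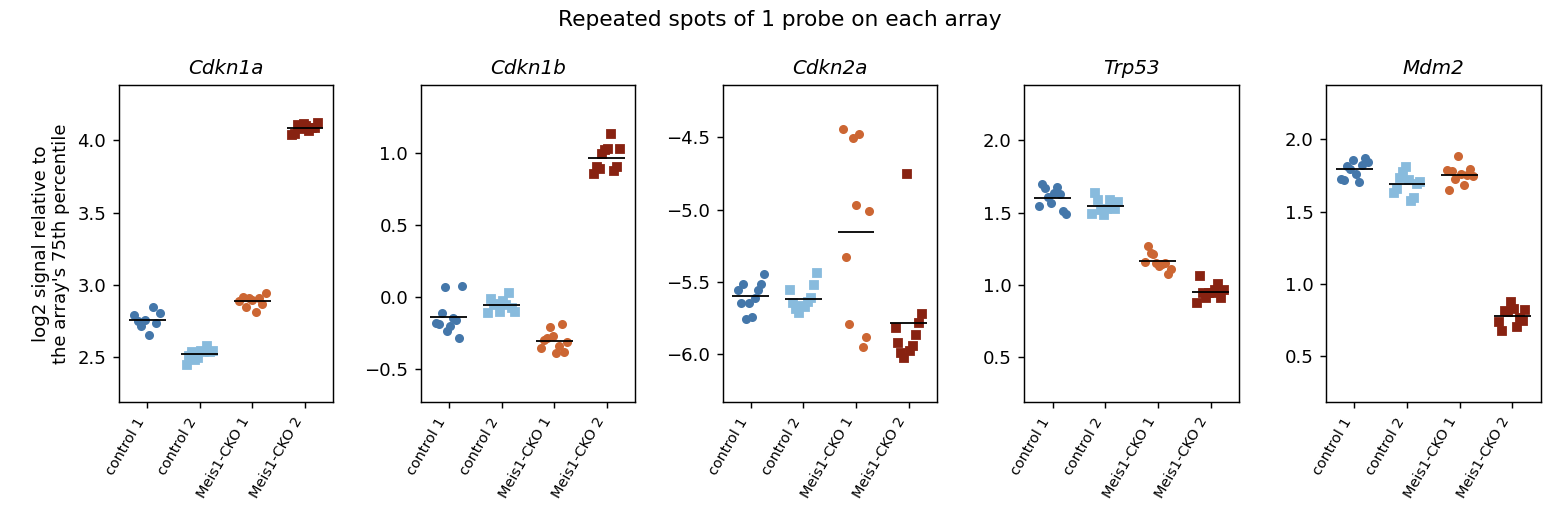
Log2 signal relative to the array's 75th percentile (y axis, a separate scale in each panel) of each spot of the probes printed 10 times (points; circles pool 1, squares pool 2) on the 4 arrays, with the array mean as a horizontal line. The Trp53 spots of both Meis1-CKO arrays lie at 1.27 or below and those of both controls at 1.48 or above; the Cdkn2a spots, none of them well above background, scatter most on Meis1-CKO 1.

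Taken slide by slide, 2 of the 9 genes were higher in Meis1-CKO on both slides (Cdkn1a and Cdkn1b; 20.4% of all features were), and 2 were lower on both (Trp53 and Mdm2; 26.5%). The other 5, Cdkn1c, Cdkn2b, Cdkn2c, Cdkn2d and Ccng1, had opposite signs on the slides, as 53.1% of features did. On slide 1 none of the 9 genes differed at least 2-fold (14.5% of features), and on slide 2 Cdkn1a, Cdkn1c and Cdkn2d did (28.4%). Meis1-CKO 2 was the highest array for 3 genes (Cdkn1a, Cdkn1b and Cdkn2d; 29.1% of features) and the lowest for the other 6 (36.9%). It was thus an extreme for 9 of 9, against 66% of features. The gap between the Meis1-CKO pools was larger than that between the control pools for 8 of 9 genes (60.2% of features), the exception being Cdkn2b, with 0.56 against 0.57. It was also larger than the difference of the group means for 8 of 9 (72.2%), the exception being Trp53, with a gap of 0.21 beside a difference of 0.52.

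**Figure D3:**
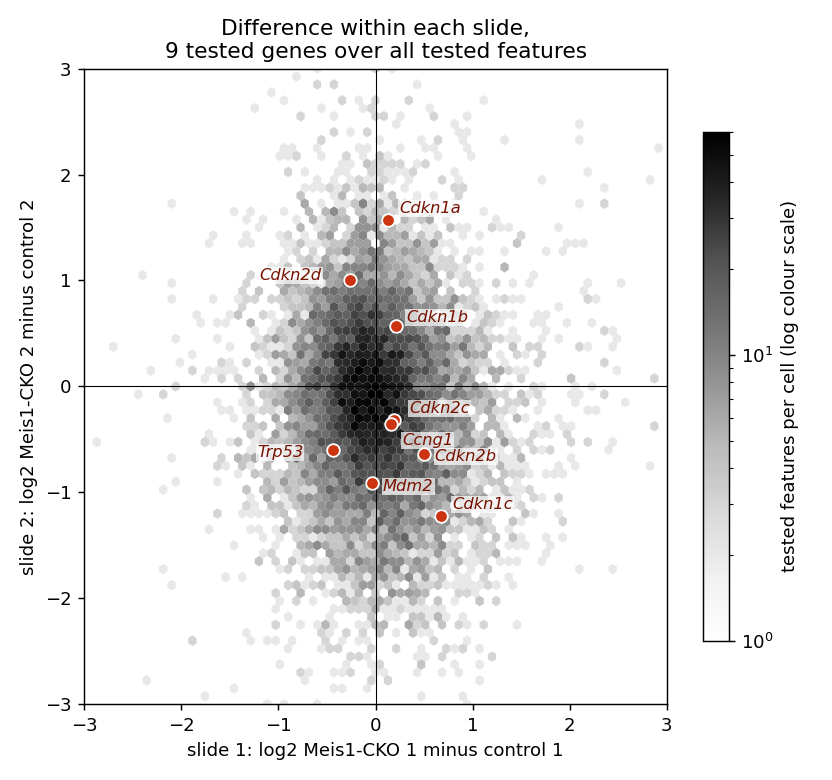
Log2 difference between Meis1-CKO and control within slide 1 (x axis) and within slide 2 (y axis) for the 9 tested genes (red points) over all tested features (grey cells, darker where more features fall, on a log colour scale). The 9 genes lie between -0.44 and 0.68 on slide 1 and between -1.22 and 1.57 on slide 2.

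Likeness between genes was measured as the root mean square difference of their deviations from their own means over the 4 arrays, as a description. Ccng1 and Cdkn2c were the closest pair, at 0.077, followed by Ccng1 and Mdm2 at 0.213, Cdkn1b and Cdkn2d at 0.229, and Cdkn2c and Mdm2 at 0.231. The most distant pair was Cdkn1a and Cdkn1c, at 1.07. The pairs above 0.5 each set a gene highest on Meis1-CKO 2 against a gene lowest there. All deviations come from the same 4 arrays.

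Genes around the 10 were described from lists chosen by function. None of their members passed limma's test at an adjusted p under 0.05. Of 34 tested p53 targets other than the 10 genes, 17 had a difference above 0 and 17 below, where 45.4% of all features were above and 54.6% below. Groups did not overlap for 12, with 5 higher (11.1% of features) and 7 lower (14.4%) in Meis1-CKO. The list's median was -0.003, with 0.11 on slide 1 and -0.21 on slide 2. Pmaip1 (Noxa), an apoptosis gene, was at 0.93 (SE 0.57), with 0.70 and 1.16, and its groups did not overlap.

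Several p53 targets had opposite signs on the slides, as 53.1% of all features did. Btg2, an antiproliferative gene, was at -0.06 on slide 1 and 2.00 on slide 2. The death receptor Fas was at 0.77 and -1.12, and Gadd45a, a damage-response gene, at 0.48 and -0.87. By sign alone, Cdkn2d matched Btg2, and Cdkn1c matched Fas and Gadd45a. With opposite signs so common among all features, such a match does not set these genes apart. Gdf15, a stress-induced cytokine, was at -1.14 (SE 0.57), the death receptor genes Tnfrsf10b and Eda2r at -0.99 (SE 0.59) and -1.39 (SE 0.70). Their groups did not overlap on the probe that stood for each gene. The other Tnfrsf10b probes, at -0.79 and -0.98, were higher on slide 1 (0.76 and 0.56) and lower on slide 2 (-2.34 and -2.52), so their groups overlapped. Eda2r was well above background in only 1 Meis1-CKO pool so a dim array enters its value. The apoptosis effectors Bax (-0.14) and Bbc3 (-0.09), the adhesion gene Perp (-0.05), Sesn2 (-0.14), Zmat3 (-0.03), Phlda3 (-0.50) and the phosphatase gene Ppm1d (0.05) had overlapping groups.

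Of the 24 regulators of p53, 12 lay above 0 and 12 below, with a median of 0.02. Groups did not overlap for 5 that were higher (11.1% of features) and 6 that were lower (14.4%). Mdm4, which encodes the MDM2 partner that holds p53 inactive, was at 0.39 (SE 0.47) on its brightest probe, but 2 of its 3 other probes had the opposite sign (-0.08 and -0.03). The p53 relatives Trp73 and Trp63, the latter needed for epithelial progenitors, were at -0.56 (SE 0.43) and -0.11 (SE 0.56), and another Trp63 probe was at 1.11. The checkpoint kinase gene Chek1 was at -0.74 (SE 0.51), with both of its probes lower on both slides. Trp53bp1, a damage-site adaptor, was at -0.86 (SE 0.49) and the acetyltransferase gene Ep300 at 0.68 (SE 0.47), each with another probe of opposite sign.

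The cyclins, CDKs and their activators are the proteins that the inhibitors oppose. Of 22 tested, 4 lay above 0 and 18 below, where 54.6% of all features lay below. Groups did not overlap for 9, all lower in Meis1-CKO (14.4% of features were lower without overlap). The median was -0.36, with -0.23 on slide 1 and -0.53 on slide 2. Skp2, the ligase subunit that marks the Cdkn1b protein, read -0.26 and 0.19 in the controls and -1.60 and -1.34 in Meis1-CKO. Both Meis1-CKO arrays were lower, by -1.34 and -1.53 on the slides, and the mean difference was -1.44 (SE 0.45, unadjusted p = 0.0211, adjusted p = 0.9999, limma). Cks1b, the SKP2 cofactor in that step, was at -0.55 (SE 0.43), with -0.49 and -0.62. Cdk4, the kinase the INK4 proteins bind, was at -0.53 (SE 0.45), with -0.55 and -0.52. Ccne1, the cyclin partner of CDK2, was at -0.79 (SE 0.52), although its second probe was at -0.05.

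The other CDK4 and CDK6 partners differed between slides. Cdk6 was at -1.17 on slide 1 and 0.26 on slide 2, Ccnd1 at -0.32 and 1.45, and Ccnd3 at -0.47 and 1.42. Ccnd2 went the other way, at 0.08 and -0.80. Among 13 RB and E2F genes the median was -0.12, and the slide medians were -0.05 on slide 1 and 0.37 on slide 2. Of the 13, 6 lay above 0 and 7 below, and groups did not overlap for 1, E2f5 (-0.55, SE 0.43), against 25.5% of features. The other E2f5 probe was at -0.18, with 0.28 on slide 1 and -0.63 on slide 2, so its groups overlapped. Rb1 was at -0.26 (SE 0.47). E2f1, an S phase activator, was at 0.02 (SE 0.90), the mean of -1.31 and 1.34. E2f7 and E2f8, which encode repressors, were at -1.49 (SE 0.82) and -1.30 (SE 0.88) and were each well above background in only 1 Meis1-CKO pool, so a dim array enters each value. The E2F partner Tfdp1 was at -0.65 (SE 0.57).

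Of 18 S phase genes tested, 2 lay above 0 and 16 below, where 54.6% of all features lay below. Taken by slide, 1 of the 18 was above 0 on slide 1 and 12 on slide 2. The median was -0.29, beside slide medians of -0.61 on slide 1 and 0.11 on slide 2. Groups did not overlap for 1 that was higher (11.1% of features) and 1 that was lower (14.4%). Mcm2, of the replicative helicase, was at -0.75 (SE 0.67), the ribonucleotide reductase subunit Rrm2 at -0.58 (SE 0.54), and the polymerase and primase genes Pola1 and Prim1 at -0.53 (SE 0.51) and -0.70 (SE 0.74); all 4 had overlapping groups. Of 19 G2 and mitosis genes tested, 5 lay above 0 and 14 below. The median was -0.19, beside slide medians of 0.003 on slide 1 and -0.42 on slide 2. Groups did not overlap for 2 of the 19, both lower in Meis1-CKO (14.4% of features). Hmmr and the kinetochore gene Cenpf were at -0.92 (SE 0.46) and -0.85 (SE 0.51) with groups that did not overlap, and Cenpe and the checkpoint kinase gene Ttk at -0.96 (SE 0.71) and -0.76 (SE 0.73) with groups that did. Second probes of Hmmr (0.44) and Cenpe (0.85) had the opposite sign. Of the 43 genes that the naming rule took from the lists, 21 had several tested probes, and in 7 of these another probe had the opposite sign.

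**Figure D4:**
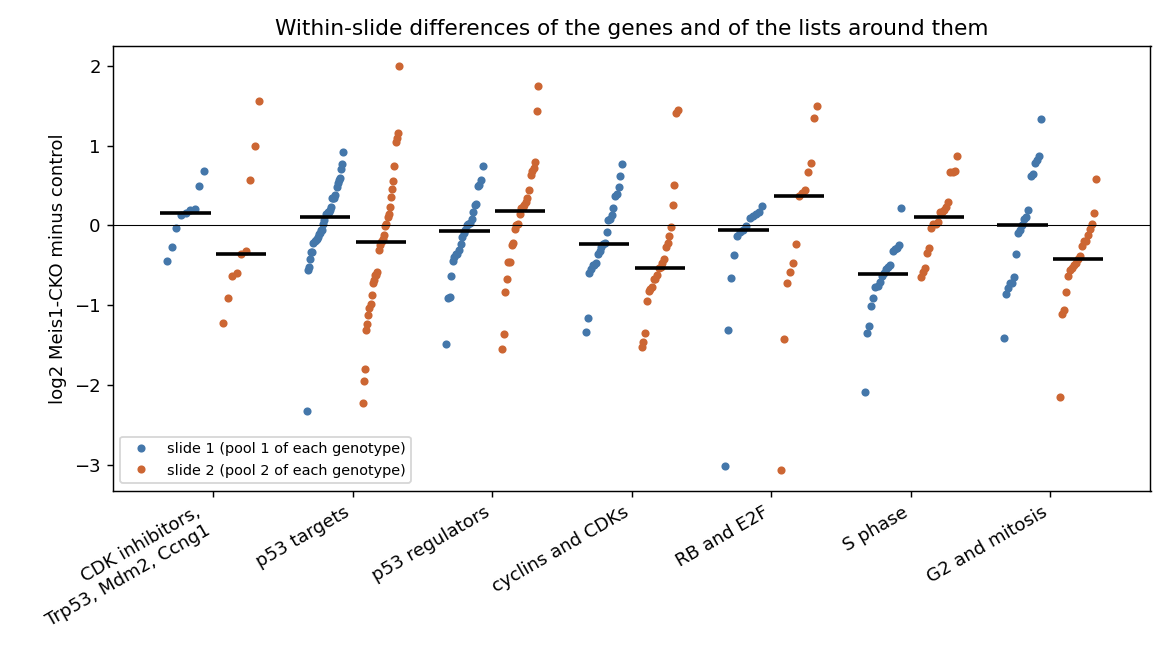
Log2 difference between Meis1-CKO and control within slide 1 (blue) and within slide 2 (orange) for each tested gene (points) of the group described and of 6 lists (x axis), with the median as a black line. The medians of the cyclins and CDKs are below 0 on both slides (-0.23 and -0.53). Those of p53 targets (0.11 and -0.21), p53 regulators (-0.08 and 0.18) and S phase genes (-0.61 and 0.11) change sign between slides. So do those of RB and E2F genes (-0.05 and 0.37) and of G2 and mitosis genes (0.003 and -0.42), the latter near 0 on slide 1. Over all features, which are not drawn, the medians were 0.002 on slide 1 and -0.12 on slide 2.

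Markers of cell types also differed between the arrays. All 15 TEC markers were well above background on every array, and Epcam read 4.24 and 4.72 in the controls and 4.47 and 4.11 in Meis1-CKO. Ptprc, which encodes CD45, read 1.44 and 1.19 in the controls and -0.75 and 5.56 in Meis1-CKO, so the array of Meis1-CKO 2 carried a high level of the marker the sort selected against. Of 17 myeloid and dendritic markers, 13 and 15 were well above background in control 1 and 2, 15 in Meis1-CKO 1 and 17 in Meis1-CKO 2. Their summed linear level, in multiples of the 75th percentile, was 31.9 and 40.1 in the controls and 36.0 and 249 in Meis1-CKO.

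The summed level of 18 interferon response genes was 71.0 and 65.6 in the controls and 62.7 and 211 in Meis1-CKO 1 and 2, with at least 17 above background on each array. That of 18 thymocyte markers was 63.1 and 29.0 in the controls and 11.7 and 62.1 in Meis1-CKO, with 14 to 17 above background and Rag2 on no array. Such a sum leans on the brightest genes. The median log2 level of the 15 tested thymocyte markers was 0.29 and -0.29 in the controls and -1.77 and 0.92 in Meis1-CKO. Of these 15, 3 were higher in Meis1-CKO on slide 1 and 12 on slide 2. The summed level of 12 fibroblast and endothelial markers was 11.7 and 7.10 in the controls and 12.4 and 7.23 in Meis1-CKO, with 7 to 10 above background and Emcn on none. That of the 15 TEC markers was 561 and 435 in the controls and 463 and 226 in Meis1-CKO. The part of these markers in the differences of Cdkn1a, Cdkn1b, Cdkn2d, Cdkn1c, Mdm2 and Trp53 on either slide was not tested. Markers also differed on slide 1, where Ptprc was at -2.19 and the thymocyte sums were 63.1 in control 1 and 11.7 in Meis1-CKO 1, beside myeloid sums of 31.9 and 36.0. On that slide the differences were 0.13 for Cdkn1a, 0.21 for Cdkn1b, -0.26 for Cdkn2d, 0.68 for Cdkn1c, -0.03 for Mdm2 and -0.44 for Trp53.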

How the data were processed

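The deposited scanner files give linear intensity per spot. Per the file headers, Agilent Feature Extraction 9.5.3.1 had applied spatial and multiplicative detrending within each array, with its background correction setting off. The deposited value table holds log2 values; set against the scanner values, it matched the 75th percentile scaling, with every probe centred on its median, and the authors' steps to it are not given in the sources used. Processed signals were put on a log2 scale and the 75th percentile of the array's non-control spots was subtracted, outlier spots were left out, and spots of 1 probe were averaged. The 75th percentile was 93.2 to 152 and 58.6% to 63.6% of spots were well above background. Probes well above background on both arrays of either genotype were tested (24265), and the brightest stood for its gene (16812 features). Groups were compared with limma 3.58.1 in R 4.3.3, unblocked, with Benjamini-Hochberg adjustment over all features at 0.05. The number of arrays limits the precision. Symbols were updated by RefSeq accession for 26690 probes.

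Named were Meis1, the 10 genes with all their probes, up to 4 members of each list with the smallest unadjusted p, and 21 pathway genes whatever their values; the result of a gene that this rule takes is not reported here. Ptprc and Epcam were named after their values were seen. The genes and lists were chosen with earlier results of these data known. Alternatives covered background correction, scaling, the filter, probe averaging, the value table, outlier spots, a replicate block and leaving out each array. Same-numbered arrays deviated together with a correlation of 0.13 over 16804 features, and no label says that a number marks a shared day or litter.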

Additional observations from a re-analysis of the deposited data

Results flagged for a closer look

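For 5 of the 10 genes the Meis1-CKO pool was on opposite sides of its control on the 2 slides. Ccng1 differed by 0.16 on slide 1 and by -0.35 on slide 2, Cdkn2c by 0.20 and -0.32, and Cdkn2b by 0.50 and -0.64. Cdkn1c differed by 0.68 and -1.22, and Cdkn2d by -0.26 and 1.00. With 1 array of each genotype on a slide, the difference between slides was not tested, and 53.1% of all features had opposite signs. Groups of 2 arrays are too small to look for a single array outside its group's range.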

How the results depend on the processing

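No gene of the 10 passed limma's test under any of 13 alternatives. Under the 9 that kept all 4 arrays, each tested gene kept the sign of its difference, and Cdkn1a ranged from 0.73 to 0.87. Not all of the 9 could change a sign or an overlap. The changed filters and the replicate block left the values of the tested genes as they were. The value table has the same scaling as the main values. The count of genes whose groups did not overlap was 2, but 1 under median scaling, where Cdkn1a overlapped, and 3 with probes averaged. Leaving out 1 array gave 0.25 to 1.45 for Cdkn1a, 0.02 to 0.76 for Cdkn1b, -0.88 to 0.33 for Cdkn1c, -0.36 to 0.22 for Cdkn2b, -0.41 to 0.29 for Cdkn2c, -0.26 to 1.00 for Cdkn2d, -0.62 to -0.41 for Trp53, -0.97 to 0.016 for Mdm2, -0.52 to 0.33 for Ccng1 and -1.57 to 0.078 for Meis1. The sign turned for Cdkn1c, Cdkn2b, Cdkn2c, Cdkn2d, Mdm2, Ccng1 and Meis1 without Meis1-CKO 2, for Cdkn1c and Cdkn2b without control 2, and for Cdkn2c and Ccng1 without control 1. List medians then ranged from -0.20 to 0.15 (p53 targets), -0.18 to 0.16 (p53 regulators), -0.42 to -0.20 (cyclins and CDKs), -0.24 to -0.05 (RB and E2F), -0.76 to 0.14 (S phase) and -0.77 to 0.14 (G2 and mitosis). Features passing the test numbered 0 to 317 when 1 array was left out; the 317 came without Meis1-CKO 1, where Meis1-CKO 2 alone stands for its genotype and is assumed to vary as the controls do. With the replicate block, 0 features passed, 664 rather than 467 had an unadjusted p under 0.05, and no difference changed. Without a filter on dim probes the median of all features was -0.16 rather than -0.05. The cause of these shifts was not tested. Signal over background leaves Cdkn2a without a value and the dim Meis1 probe with a bound.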
